A study of Mus musculus with 12 samples.

Results

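Expression of 10 genes of the prostaglandin and leukotriene pathway was followed in bone marrow-derived macrophages (BMDMs) from WT mice and from mice labelled Pim1-/-, a knockout of the kinase gene Pim1. The genes were taken by symbol from the 23997 genes listed for each library, and all 10 were found. They were the cyclooxygenases Ptgs1 and Ptgs2, the terminal synthases Ptges, Hpgds and Tbxas1, the prostanoid receptors Ptgir, Ptger2 and Ptger4, and the leukotriene genes Alox5 and Alox5ap.

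The study asked whether Pim1 takes part in Toll-like receptor signaling. RNA-seq was performed on 12 libraries in 4 groups of 3: WT untreated, Pim1-/- untreated, WT treated with LPS and Pim1-/- treated with LPS. LPS, a lipid of the bacterial outer membrane sensed by TLR4, was given at 100 ng/ml for 4 h. All cells came from the bone marrow of male C57BL/6 mice aged 8 to 10 weeks and were cultured with recombinant human macrophage colony-stimulating factor at 10 ng/ml for 7 days. The study describes the Pim1-/- mice as made by CRISPR/Cas9 editing, with a deletion of exons I-V. The labels do not say whether the 3 libraries of a group came from separate animals, and the p-values measure the spread between these libraries, which may be technical.

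Prostaglandins and leukotrienes are lipid mediators made from arachidonic acid that phospholipases release from membranes. Cyclooxygenases turn it into prostaglandin H2, which terminal synthases convert to PGE2, PGD2, prostacyclin or thromboxane, each acting on its own G protein-coupled receptors. In the other branch, 5-lipoxygenase and its activating protein start the synthesis of leukotrienes. Macrophages are a textbook source of both, and cyclooxygenase-2 and the inducible PGE synthase are classical LPS-induced genes in these cells.

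Values are FPKM, fragments scaled to transcript length and to the size of the library, which are per length and so allow levels of different genes to be set side by side. Differences were fitted with limma on log2(FPKM + 1). A gene was called changed when 3 conditions were met: a difference above 2-fold, an unadjusted p below 0.05 and an FDR (Benjamini-Hochberg, over the 10581 genes tested) below 0.1. The added 1 FPKM shrinks the differences of genes at low levels, so the ratio of mean FPKM is given beside them. All 10 genes passed the filter of 1 FPKM in at least 3 libraries. Ptgs2 and Ptges passed through their LPS-treated libraries, Ptger2 through its WT libraries and Alox5 through its Pim1-/- libraries.

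The sequences before Ptgs2, Ptges and Ptger4 are shown because these are the 3 of the 10 genes called higher after LPS in WT cells. RefSeq's GRCm38.p6 table gave promoters for 9 of the 10 genes. Each printed sequence runs 5′ to 3′ on the gene's strand, from 250 bases before the annotated start to 30 bases after it, with motif matches in capitals. In Ptgs2 (chr1:150099781-150100060, plus strand) the capitals mark a kappaB match, a C/EBP match and, after the start, the core of a cyclic AMP response element on the opposite strand. In Ptger4 (chr15:5244158-5244437, minus strand) they mark 2 kappaB matches, of which the first is on the opposite strand. The Ptges window (chr2:30903268-30903547, minus strand) held none of the 6 motifs, and its RefSeq start lies inside the longer gene interval that GENCODE gives.
Ptgs2: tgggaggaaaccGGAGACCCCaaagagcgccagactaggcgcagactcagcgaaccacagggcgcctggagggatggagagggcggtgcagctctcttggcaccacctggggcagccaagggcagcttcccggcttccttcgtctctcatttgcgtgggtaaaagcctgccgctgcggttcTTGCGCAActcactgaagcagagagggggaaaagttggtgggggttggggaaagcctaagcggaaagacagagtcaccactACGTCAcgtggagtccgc
Ptges: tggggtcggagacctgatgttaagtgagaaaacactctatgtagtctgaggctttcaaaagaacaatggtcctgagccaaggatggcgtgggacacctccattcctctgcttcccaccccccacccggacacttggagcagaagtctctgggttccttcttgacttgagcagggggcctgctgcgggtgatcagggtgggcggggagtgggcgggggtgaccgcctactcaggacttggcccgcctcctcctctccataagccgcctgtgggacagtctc
Ptger4: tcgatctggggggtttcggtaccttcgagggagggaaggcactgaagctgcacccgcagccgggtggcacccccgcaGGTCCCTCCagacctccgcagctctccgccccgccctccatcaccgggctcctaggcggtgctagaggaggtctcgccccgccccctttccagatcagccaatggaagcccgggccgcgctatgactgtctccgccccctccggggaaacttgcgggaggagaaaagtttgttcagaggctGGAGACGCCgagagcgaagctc

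The motifs were searched on both strands over 300 bases, of which 250 lie before and 50 after the start. The kappaB letters GGANNNNCC occurred in 48.44% of 32851 promoters, so a match is common. The C/EBP letters TTGCNNAA occurred in 10.8%, the core TGACGT in 7.513%, the TATA box letters TATAAA in 13.62%, the ISRE letters GAAANNGAA in 8.56% and the PU.1 letters GAGGAAGT in 3.202%. Among the other members, PU.1 letters were found in Ptgs1 and Hpgds, C/EBP letters in Hpgds and Ptger2, a kappaB match in Alox5 and TATA box letters in Tbxas1. These matches describe letters and not binding.

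Pim1 itself was lower in the libraries labelled Pim1-/- but not at 0. Untreated WT libraries had 25.0, 21.5 and 22.3 FPKM of Pim1 and untreated Pim1-/- libraries 8.70, 8.00 and 9.51. After LPS the mean of the 3 libraries was 645 FPKM (SD 17.8, n = 3) in WT and 219 (SD 15.6) in Pim1-/-, a log2 difference of -1.56 (SE 0.0654, adjusted p = 9.1e-12). The groups did not overlap in either condition. The files give 1 value per gene, so reads from inside and outside the deleted exons could not be separated.

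All 10 macrophage markers were detected in every group, but their levels differed with genotype. Lyz2, which encodes lysozyme, was at 26300 ± 1088 FPKM in untreated WT and 13300 ± 518 in untreated Pim1-/- cells. Csf1r, the receptor for the growth factor used in the culture, was at 764 ± 23.4 and 254 ± 21.3. Untreated Pim1-/- cells had 4 of the 10 markers called lower (Csf1r, Mertk, Fcgr1, Mrc1) and 1 called higher (Msr1), and after LPS 3 were called lower (Csf1r, Mertk, Fcgr1), where 7.78% and 8.66% of all genes were called, 3.37% and 5.15% lower. Msr1, a scavenger receptor gene, was at 28.8 FPKM in untreated WT and 97.7 in untreated Pim1-/- cells, whereas Cd14 overlapped at 167.5 and 160.3 FPKM and Cd68 was at 1161 and 956. The summed level of the list was 27970 to 30030 FPKM in untreated WT, 14500 to 15440 in untreated Pim1-/-, 31360 to 31890 in LPS-treated WT and 16190 to 18100 in LPS-treated Pim1-/- libraries, most of it Lyz2. The other 9 markers summed to 2533 to 2613 FPKM in untreated WT, 1625 to 1768 in untreated Pim1-/-, 4871 to 4956 in LPS-treated WT and 3496 to 3624 in LPS-treated Pim1-/- libraries. In bulk RNA, fewer cells of a type and less RNA per cell cannot be told apart. The part of these shifts in the values below was not tested.

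Other eicosanoid-producing cells left few marker transcripts. Of 10 mast cell and basophil markers, 8 were under 1 FPKM in every library, and Fcer1a, Mcpt4, Cma1 and Tpsb2 were at 0. Kit did not exceed 2.69 FPKM. Hdc, histidine decarboxylase, was the exception and reached 49.7 ± 0.869 FPKM after LPS in WT and 31.2 ± 2.21 in Pim1-/- cells. Of the platelet and megakaryocyte markers, 7 of 8 were under 1 FPKM, as were 7 of 8 eosinophil markers, 6 of 8 dendritic cell, 5 of 6 B cell, 5 of 6 T and NK cell and 5 of 8 stromal cell markers. The 9 neutrophil markers found summed to 3.01 to 3.385 FPKM in untreated WT and 6.089 to 7.021 in untreated Pim1-/- libraries. After LPS they summed to 7.235 to 9.821 FPKM in WT and 5.779 to 8.667 in Pim1-/- libraries. Some of these low markers moved with genotype. Cd4 was called lower in Pim1-/- cells, at 0.432 against 4.96 FPKM untreated and 0.31 against 2.57 after LPS. Klrb1c, of the same T and NK cell list, was under 1 FPKM in every library and not tested. It went the other way, at 0.2425 in Pim1-/- against 0.077 FPKM in WT untreated and 0.443 against 0.122 after LPS. Pdgfrb and S100a9 were called lower in Pim1-/- cells after LPS, at 2.16 against 7.10 and 0.776 against 3.07 FPKM. Cd4 passed the filter only through its WT libraries and S100a9 only through its LPS-treated WT libraries, the groups where they are high. The other tested neutrophil markers, Mmp8 and S100a8, did not follow S100a9 and were not called between genotypes. Mmp8 was higher in Pim1-/- cells, at 2.78 against 1.43 FPKM untreated and 2.36 against 1.37 after LPS. S100a8 was higher in untreated Pim1-/- cells, at 3.41 against 1.29 FPKM, and overlapped after LPS, at 3.85 and 3.81. The stromal list summed to 2.86 to 3.35 FPKM in untreated WT, 0.903 to 1.11 in untreated Pim1-/-, 11.4 to 11.6 in LPS-treated WT and 3.07 to 3.84 in LPS-treated Pim1-/- libraries. Their part in the values below was not tested. None of the 10 pathway genes is in these lists.

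**Figure D1:**
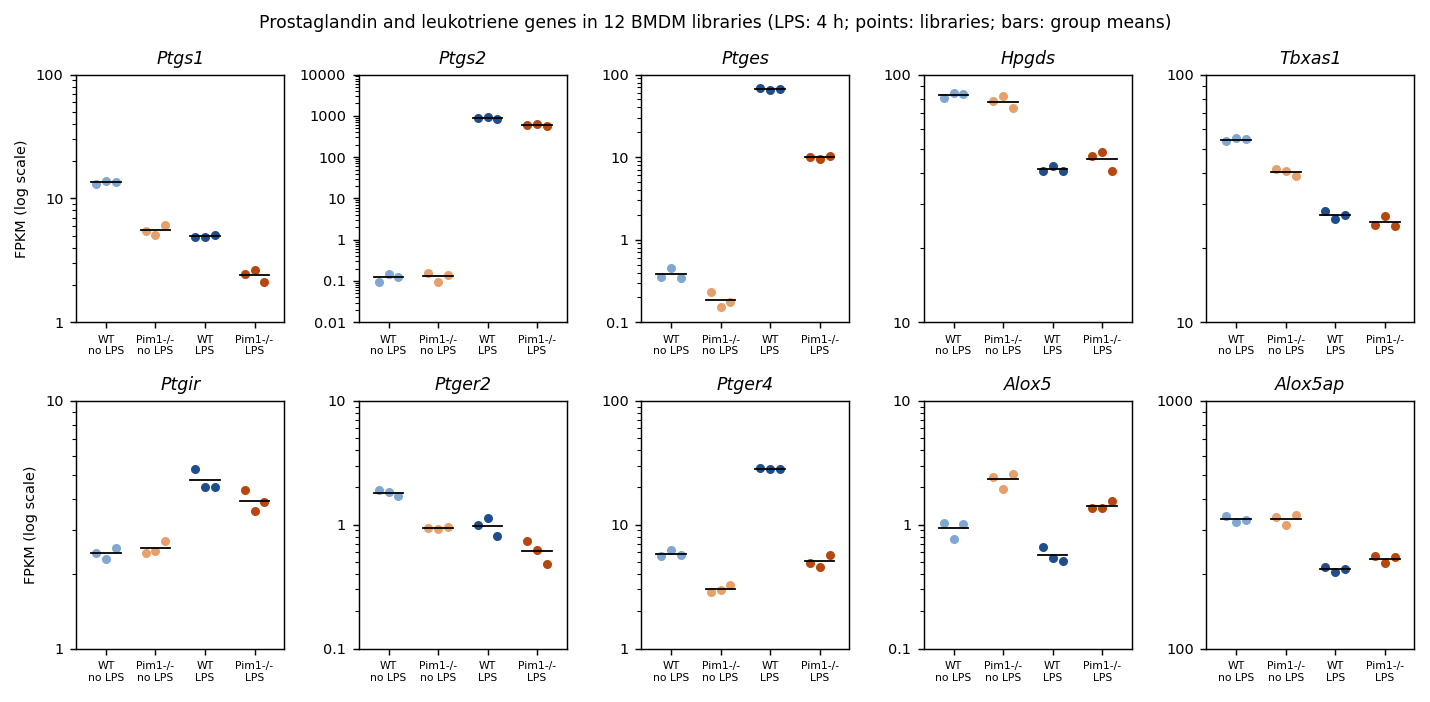
FPKM of the 10 genes in each library on a log axis, with points for the 3 libraries of a group and a bar for the group mean. Ptgs2, Ptges, Ptger4 and Ptgir stand highest in LPS-treated WT cells, with Ptges at 64.5 to 68.1 FPKM there against 9.58 to 10.2 in LPS-treated Pim1-/- cells.

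The 10 genes included calls in both directions after LPS in WT cells. There, 3 were called higher (Ptgs2, Ptges, Ptger4) and 1 was called lower (Ptgs1), against 34.8% of all genes tested that were called in this comparison (20.1% higher and 14.7% lower). In Pim1-/- cells 2 were called higher (Ptgs2, Ptges) and 0 lower, where 25% of all genes were called (14.6% higher and 10.4% lower). The median log2 difference was -0.40 over the 10 genes in WT and -0.36 in Pim1-/-, beside 0.00 and -0.01 over all genes tested. The treated and untreated libraries did not overlap for any of the 10 genes in either genotype, as was the case for 90.4% of all genes in WT and 83.8% in Pim1-/-.

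The cyclooxygenases went in opposite directions after LPS in WT cells. Ptgs1 (chr2:36230426-36252272), the constitutive cyclooxygenase-1, had 13.1, 13.8 and 13.5 FPKM in untreated WT and 4.90, 4.88 and 5.04 in LPS-treated WT libraries. Untreated Pim1-/- libraries had 5.46, 5.10 and 6.14 FPKM of Ptgs1, and LPS-treated Pim1-/- libraries 2.47, 2.63 and 2.12. No group overlapped another, and untreated WT cells stood highest. LPS lowered Ptgs1 2.728-fold in WT (log2 -1.29, SE 0.0656, adjusted p = 1.9e-11). In Pim1-/- cells the log2 difference was -0.95 (adjusted p = 1.4e-09), within 2-fold on this scale, while the ratio of mean FPKM was 2.314-fold. It was called at -1.18 with a pseudocount of 0.1 FPKM and at -1.48 with equal FPKM sums.

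Ptgs1 was also the 1 gene of the 10 called between the genotypes in untreated cells, where 7.78% of all genes were called (3.37% lower and 4.4% higher). It was 2.422-fold lower in Pim1-/- cells (log2 -1.14, SE 0.0656, adjusted p = 4e-10). After LPS it was 2.054-fold lower by mean FPKM, with a log2 difference of -0.81 (adjusted p = 2.1e-08) that missed the 2-fold threshold and passed it, at -1.01, with the smaller pseudocount. With equal FPKM sums that difference was -0.61 and not called.

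Ptgs2 (chr1:150100031-150108227), the inducible cyclooxygenase-2, was at a very low level before LPS. Its untreated values were 0.0937, 0.15 and 0.127 FPKM in WT and 0.154, 0.0947 and 0.138 in Pim1-/- libraries, which overlap. Files without counts give no exact depth, but the spacing of low values put 1 fragment of a transcript of 2000 effective bases at 0.011 to 0.0243 FPKM, and these values then stand for an estimated 15 to 30 fragments per library. The untreated genotypes differed by a log2 of 0.01 (95% interval -0.10 to 0.11, adjusted p = 0.91).

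After LPS, Ptgs2 had 884.5, 932.5 and 845.2 FPKM in WT and 611.5, 619.5 and 564.0 in Pim1-/- libraries. It was then the most abundant of the 10 genes in both genotypes. Mean FPKM was 7183-fold the untreated level in WT and 4638-fold in Pim1-/-, on a base of few fragments. The log2 rise was 9.63 (SE 0.0492, adjusted p = 2.1e-23) in WT and 9.05 (adjusted p = 3.5e-23) in Pim1-/-. Between the LPS-treated genotypes the level was 1.483-fold lower in Pim1-/- cells (log2 -0.57, SE 0.0492, adjusted p = 4.3e-08), with no overlap between groups and under the 2-fold threshold. This difference was -0.38 under quantile normalization and -0.36 with all libraries set to equal FPKM sums.

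The 3 genes whose profile over the 4 groups was nearest to that of Ptgs2 were Cd40, Cd69 and Il1a. The root mean square difference of centred group means of log2(FPKM + 1) over the 4 groups was 0.0809 for Cd40, 0.0975 for Cd69 and 0.161 for Il1a. Cd40, a costimulatory receptor, went from means of 1.55 and 1.467 FPKM in untreated WT and Pim1-/- cells to 1727 and 1252 after LPS.

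Ptges showed the largest genotype difference of the 10 genes. It encodes the inducible microsomal PGE synthase that works downstream of cyclooxygenase-2. LPS-treated WT libraries had 68.1, 64.5 and 66.7 FPKM of Ptges (chr2:30889471-30929863, minus strand), and LPS-treated Pim1-/- libraries 10.0, 9.58 and 10.2. Untreated WT libraries had 0.352, 0.451 and 0.343 FPKM and untreated Pim1-/- libraries 0.233, 0.152 and 0.178. No group overlapped another, and LPS-treated WT cells were far above the rest.

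After LPS, Ptges was 6.687-fold lower in Pim1-/- than in WT cells (log2 -2.62, SE 0.052, adjusted p = 3.6e-15). In this comparison 2 of the 10 genes, Ptges and Ptger4, were called lower and 0 higher, beside 8.66% of all genes called in either direction (5.15% lower and 3.51% higher). Ptges rose in both genotypes, 173.9-fold by mean FPKM in WT (log2 5.61) and 53.0-fold in Pim1-/- (log2 3.20), and the test of the difference between these responses gave a log2 of -2.41 (SE 0.0736, adjusted p = 1.9e-12). Untreated levels were already 2.037-fold lower in Pim1-/- cells by mean FPKM, at under 0.5 FPKM in every library (log2 -0.22, adjusted p = 0.0014). The annotated gene Gm13400 overlaps Ptges on the same strand, so their fragments may not be fully separate.

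Hpgds (chr6:65117293-65144908), the hematopoietic PGD2 synthase, was the most abundant of the 3 terminal synthases before LPS. It had 80.6, 84.3 and 83.2 FPKM in untreated WT and 77.8, 81.7 and 73.1 in untreated Pim1-/- libraries. After LPS it had 40.7, 42.8 and 40.8 FPKM in WT and 46.9, 48.6 and 40.8 in Pim1-/- libraries. The genotypes overlapped in both conditions, with log2 differences of -0.09 (adjusted p = 0.16) untreated and 0.13 (95% interval 0.001 to 0.25, adjusted p = 0.062) after LPS. The latter depended on scaling, at 0.31 (adjusted p = 0.00014) under quantile normalization and 0.33 (adjusted p = 4.2e-05) with equal FPKM sums, not called. The LPS difference was -0.98 (adjusted p = 1.5e-10) in WT and -0.76 (adjusted p = 5e-09) in Pim1-/-, both short of 2-fold as deposited.

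Tbxas1 (chr6:38875404-39084585), thromboxane synthase, followed Hpgds in level. Its values were 53.7, 55.5 and 54.8 FPKM in untreated WT, 41.5, 40.9 and 39.0 in untreated Pim1-/-, 28.1, 26.1 and 27.0 in LPS-treated WT and 24.6, 26.9 and 24.5 in LPS-treated Pim1-/- libraries. The untreated genotypes did not overlap (log2 -0.43, adjusted p = 6.7e-07), whereas the LPS-treated ones did (log2 -0.09, adjusted p = 0.081, with the opposite sign under quantile normalization, at 0.08, and with equal FPKM sums, at 0.11). LPS gave -0.99 (adjusted p = 6.3e-12) in WT and -0.65 (adjusted p = 1.8e-09) in Pim1-/-. In WT, leaving out untreated replicate 1 or LPS-treated replicate 1 took it just past 2-fold, at -1.0004 and -1.0141, as did median-ratio scaling, at -1.0066, and a pseudocount of 0.1 FPKM, at -1.0112. In the same comparison, leaving out LPS-treated replicate 2 took Hpgds to -1.0035.

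Library scaling bears on these LPS differences. The deposited FPKM summed to 452511.3 to 489710.1 per untreated library, 837585.2 to 849322.7 per LPS-treated WT library and 713307.2 to 743912 per LPS-treated Pim1-/- library. Setting all libraries to equal sums moved the median log2 LPS difference of all genes to -0.67 in WT and -0.58 in Pim1-/-. Relative to the deposited scale, Hpgds then went to -1.78 in WT and -1.42 in Pim1-/-, and Tbxas1 to -1.78 and -1.30, all called. The direction after LPS was the same under median-ratio, quantile and equal-sum scaling for all 10 genes in both genotypes, except for Alox5 in WT and Ptgir in Pim1-/- cells, as given with these genes.

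**Figure D2:**
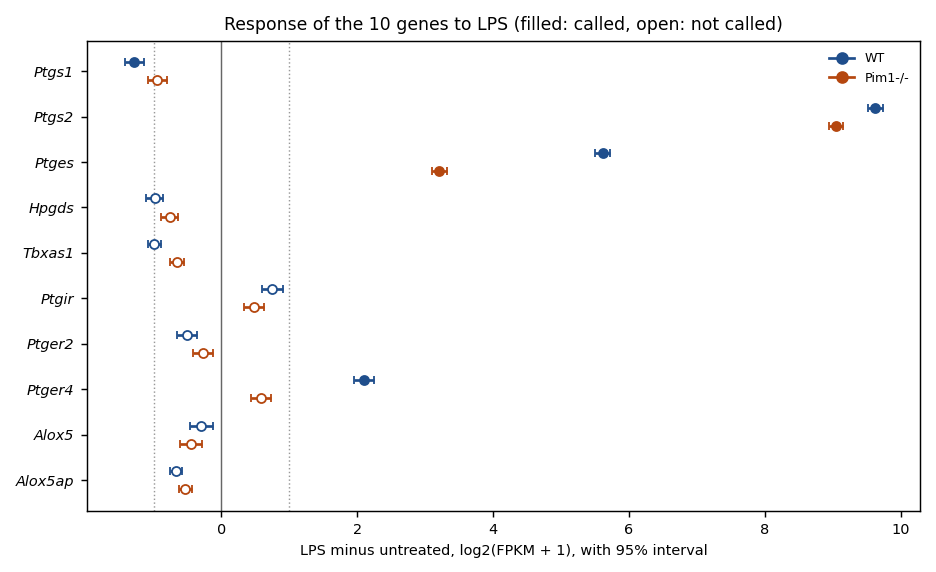
Difference between LPS-treated and untreated cells in log2(FPKM + 1), with 95% intervals, in WT and Pim1-/- cells. Dotted lines mark 2-fold. The points of Ptges (5.61 in WT, 3.20 in Pim1-/-) and Ptger4 (2.10 and 0.58) lie far apart.

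Of the receptors, Ptger4 was the one called. Ptger4 (chr15:5206661-5244187, minus strand) encodes the PGE2 receptor EP4, which signals through cyclic AMP. LPS-treated WT libraries had 28.8, 28.0 and 28.2 FPKM of Ptger4, and LPS-treated Pim1-/- libraries 4.88, 4.56 and 5.72. Untreated WT libraries had 5.61, 6.25 and 5.68 FPKM and untreated Pim1-/- libraries 2.87, 2.95 and 3.28. LPS-treated Pim1-/- cells thus overlapped with untreated WT cells, and LPS-treated WT cells stood apart from all others.

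After LPS, Ptger4 was 5.606-fold lower in Pim1-/- than in WT cells (log2 -2.28, SE 0.067, adjusted p = 1.8e-13). LPS raised it 4.848-fold in WT (log2 2.10, adjusted p = 4.1e-14). In Pim1-/- cells the log2 difference was 0.58 (adjusted p = 7e-07), not called as deposited and 0.06 (adjusted p = 0.468) with equal FPKM sums. The difference between the responses was -1.52 (SE 0.0947, adjusted p = 3e-09). In untreated cells Ptger4 was 1.928-fold lower in Pim1-/- cells (log2 -0.76, adjusted p = 6.2e-08), without overlap. Ttc33 and Gm15937 overlap Ptger4 on the opposite strand. Annotated genes on the opposite strand also overlap Ptgs1, Ptger2, Alox5ap, Hpgds and Tbxas1, and Gm23010 overlaps Tbxas1 on the same strand. The library kit keeps strand, but whether the counting used it is not given in the sources used here.

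Ptger2 (chr14:44988195-45003820), the gene of the related PGE2 receptor EP2, stayed near 1 FPKM. It had 1.90, 1.83 and 1.71 FPKM in untreated WT, 0.938, 0.921 and 0.960 in untreated Pim1-/-, 0.994, 1.13 and 0.815 in LPS-treated WT and 0.740, 0.620 and 0.481 in LPS-treated Pim1-/- libraries. Untreated WT cells were above all other groups, and untreated Pim1-/- overlapped with LPS-treated WT cells. By mean FPKM it was 1.928-fold lower in Pim1-/- cells without LPS (log2 -0.53, adjusted p = 4.7e-06) and 1.594-fold lower with LPS (log2 -0.29, adjusted p = 0.0012). LPS gave -0.51 in WT and -0.27 in Pim1-/- (adjusted p = 4.2e-06 and 0.0021), and none of these differences was called.

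Ptgir (chr7:16906490-16910905), the prostacyclin receptor gene, had 2.43, 2.30 and 2.56 FPKM in untreated WT and 2.44, 2.49 and 2.71 in untreated Pim1-/- libraries. After LPS it had 5.33, 4.48 and 4.50 FPKM in WT and 4.37, 3.58 and 3.89 in Pim1-/- libraries. The untreated genotypes overlapped (log2 0.05, adjusted p = 0.55), and the LPS-treated ones did not (log2 -0.22, adjusted p = 0.0096). LPS gave 0.75 (adjusted p = 5e-08) in WT and 0.48 (adjusted p = 1.2e-05) in Pim1-/-, short of 2-fold. With equal FPKM sums these LPS values were 0.12 (adjusted p = 0.122) in WT and -0.03 (adjusted p = 0.737) in Pim1-/-, and the difference between LPS-treated genotypes was -0.05 (adjusted p = 0.526).

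**Figure D3:**
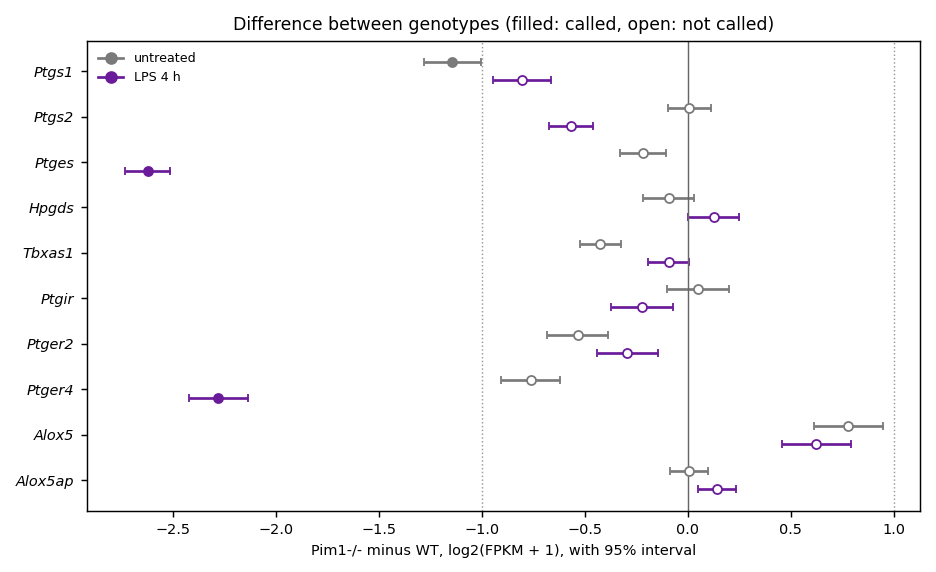
Difference between Pim1-/- and WT cells in log2(FPKM + 1), with 95% intervals, in untreated and LPS-treated cells. Dotted lines mark 2-fold. Ptges (-2.62) and Ptger4 (-2.28) lie past the line after LPS and Ptgs1 (-1.14) without treatment, and Alox5 (0.78 and 0.62) lies on the other side of 0.

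The 2 leukotriene genes were present at very unequal levels. Alox5 (chr6:116410077-116461178, minus strand) encodes 5-lipoxygenase. Untreated WT libraries had 1.03, 0.761 and 1.01 FPKM of Alox5 and untreated Pim1-/- libraries 2.45, 1.95 and 2.56. LPS-treated WT libraries had 0.666, 0.543 and 0.507 FPKM and LPS-treated Pim1-/- libraries 1.36, 1.37 and 1.55. No group overlapped another, and both Pim1-/- groups were above both WT groups. Alox5 passed the filter through the Pim1-/- libraries, where it is higher.

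By mean FPKM, Alox5 was 2.489-fold higher in Pim1-/- than in WT cells without treatment and 2.487-fold higher after LPS. On log2(FPKM + 1) these differences were 0.78 (SE 0.0779, adjusted p = 2.7e-07) and 0.62 (adjusted p = 2.7e-06) and were not called. With a pseudocount of 0.1 FPKM they were 1.23 and 1.19 and were called. LPS gave -0.30 in WT (adjusted p = 0.0022, and 0.07 under quantile normalization) and -0.45 in Pim1-/- (adjusted p = 6.2e-05), with a mean FPKM 1.629-fold lower in each genotype.

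Nearest to Alox5 in profile were Arhgap5, C1galt1 and Wdr54, with root mean square differences of 0.036, 0.0416 and 0.045 over the 4 groups. The profile of Alox5 spans little on this scale, so small distances are easily reached.

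Alox5ap (chr5:149264767-149288153), the gene of the 5-lipoxygenase-activating protein FLAP, was the most abundant of the 10 genes in untreated cells. It had 341.6, 325.6 and 330.7 FPKM in untreated WT and 340.5, 315.6 and 344.8 in untreated Pim1-/- libraries, which overlap (log2 0.00, 95% interval -0.09 to 0.10, adjusted p = 0.95). After LPS it had 212.8, 204.4 and 209.2 FPKM in WT and 235.5, 221.2 and 234.3 in Pim1-/- libraries. The LPS-treated groups did not overlap and differed 1.103-fold (log2 0.14, adjusted p = 0.008). That log2 difference was 0.39 under quantile normalization and 0.35 with equal FPKM sums. LPS gave -0.67 (adjusted p = 4.1e-10) in WT and -0.53 (adjusted p = 1e-08) in Pim1-/- as deposited, and -1.48 and -1.19, both called, with equal FPKM sums.

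Over the 10 genes, 8 did not overlap between the genotypes after LPS and 6 did not without treatment, beside 77.5% and 78.4% of all genes tested. The median log2 difference was -0.26 after LPS and -0.16 untreated, beside -0.03 and -0.05 over all genes. For the difference in LPS response, 2 of the 10 genes were called lower in Pim1-/- cells (Ptges and Ptger4), where 6.67% of all genes were called (4.43% lower and 2.24% higher). Of the other 8, Ptgs2 had a difference of -0.57 (adjusted p = 3.9e-06), Tbxas1 of 0.33 (adjusted p = 0.00041) and Ptgs1 of 0.34 (adjusted p = 0.0052). The remaining 5 lay between -0.27 (Ptgir) and 0.24 (Ptger2).

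Ratios taken within a library do not depend on how the library was scaled. They were compared with an exact two-sided permutation test of 3 libraries against 3, which cannot give a p below 0.1. The log2 ratio of Ptgs2 to Ptgs1 was -6.80 ± 0.305 in untreated WT and -5.46 ± 0.301 in untreated Pim1-/- cells (SD, n = 3). After LPS it was 7.49 ± 0.0934 in WT and 7.96 ± 0.0911 in Pim1-/- cells. LPS thus moved it by 14.3 in WT and 13.4 in Pim1-/- on the log2 scale. The groups did not overlap, and in both conditions it was higher in Pim1-/- cells, by 1.34 untreated and 0.48 after LPS.

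The ratio of Ptges to Ptges2, a constitutive PGE synthase gene, was -3.86 ± 0.285 in untreated WT and -5.22 ± 0.326 in untreated Pim1-/- cells. After LPS it was 3.10 ± 0.1 in LPS-treated WT and 0.42 ± 0.0326 in LPS-treated Pim1-/- cells. Ptges2 itself was at 7.78 ± 0.334 and 7.41 ± 0.335 FPKM there, with overlapping values. In untreated cells Ptges2 was at 5.51 ± 0.355 FPKM in WT and 6.90 ± 0.123 in Pim1-/-, without overlap (log2 0.28, not called). LPS gave Ptges2 a log2 difference of 0.43 in WT and 0.09 in Pim1-/-, not called. The log2 ratio of the receptors Ptger4 and Ptger2 was 1.69 ± 0.113 in untreated WT and 1.69 ± 0.079 in untreated Pim1-/- cells (exact permutation p = 0.9). After LPS it was 4.87 ± 0.239 in WT and 3.06 ± 0.452 in Pim1-/- cells, without overlap.

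The log2 ratio of Alox5ap to Alox5 separated the genotypes and not the treatments. It was 8.49 ± 0.216 in untreated WT and 8.52 ± 0.187 in LPS-treated WT cells (exact permutation p = 1), and 7.18 ± 0.141 and 7.34 ± 0.0976 in Pim1-/- cells (exact permutation p = 0.2). The Pim1-/- minus WT difference was -1.315 untreated and -1.181 after LPS, with no overlap.

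**Figure D4:**
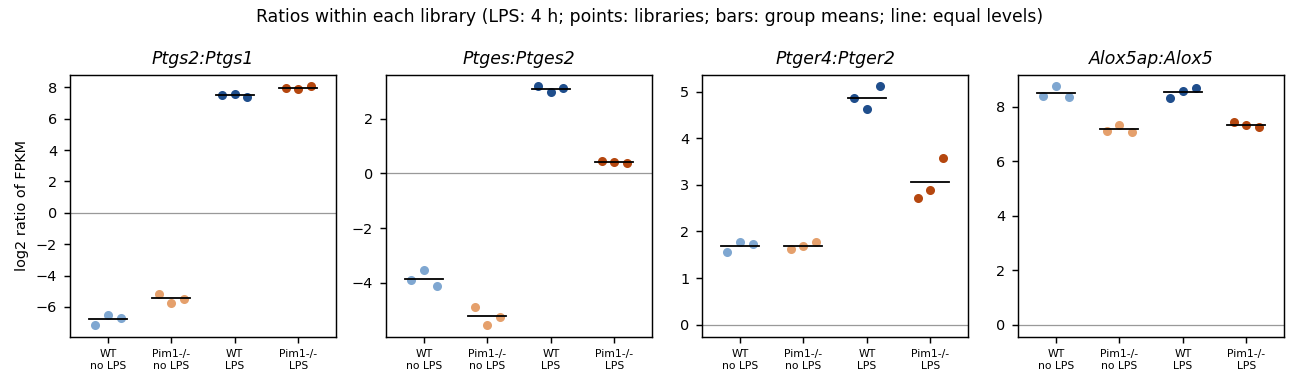
Log2 ratios of FPKM within each library, with points for libraries and bars for group means. Ptgs2:Ptgs1 changes sign with LPS (from -6.80 to 7.49 in WT), Ptges:Ptges2 goes from -5.22 to 0.42 with LPS in Pim1-/- and from -3.86 to 3.10 in WT cells, and Alox5ap:Alox5 differs by genotype.

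A list of 41 other eicosanoid genes gave the surrounding pathway. All 41 were found in the files (Prxl2b under its older symbol Fam213b), 21 were tested and the other 20 were under 1 FPKM in every library. After LPS 2 of the 21 were called lower in Pim1-/- cells and 1 higher, where 8.66% of all genes were called, and in untreated cells 3 lower and 3 higher, where 7.78% were. With LPS 7 were called lower and 4 higher in WT, beside 34.8% of all genes, and 1 lower and 4 higher in Pim1-/-, beside 25%. The thromboxane receptor gene Tbxa2r, the PGD2 receptor gene Ptgdr, and Ptgds and Ggt1 were listed at 0 in every library.

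Of the genes that supply arachidonic acid, Pla2g4a, cytosolic phospholipase A2, was the 1 gene of the list whose LPS response was called different between genotypes. It had means of 4.31 ± 0.378 FPKM in untreated WT, 19.2 ± 2.04 in untreated Pim1-/-, 42.3 ± 1.93 in LPS-treated WT and 33.6 ± 3.76 in LPS-treated Pim1-/- cells. It was higher in untreated Pim1-/- cells by 1.92 (adjusted p = 1.5e-11) and differed by -0.33 (adjusted p = 0.0022) after LPS. LPS raised it by 3.03 in WT, with 0.78 in Pim1-/- and a difference in response of -2.25 (adjusted p = 5e-10). Pla2g6, a calcium-independent phospholipase, fell in WT after LPS (log2 -1.07, adjusted p = 2.2e-09). By mean FPKM it fell 4.411-fold there, from 2.11 to 0.479 FPKM, and it passed the filter through its untreated libraries.

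Among the other synthases, Ptges3, a cochaperone also described as a cytosolic PGE synthase, had means of 38.6, 61.4, 108.2 and 86.9 FPKM in untreated WT, untreated Pim1-/-, LPS-treated WT and LPS-treated Pim1-/- cells. It rose with LPS in WT (log2 1.46, adjusted p = 3.7e-12) and had 0.49 in Pim1-/-. Fam213b, in the same order at 34.3, 19.0, 16.2 and 10.9 FPKM, fell with LPS in WT (log2 -1.04, adjusted p = 3.9e-09). Akr1b3, at 30.9, 43.8, 34.0 and 42.8 FPKM, was not called in any comparison.

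The receptor genes Ptger1 and Ptger3 fell with LPS in WT. Ptger1, the EP1 receptor gene, had means of 25.0 FPKM in untreated WT, 14.9 in untreated Pim1-/-, 9.40 in LPS-treated WT and 7.22 in LPS-treated Pim1-/- cells, and its log2 difference in WT was -1.33 (adjusted p = 6.6e-10). For Ptger3 it was -1.26 (adjusted p = 3.6e-10), or 11.67-fold lower by mean FPKM, from 1.74 to 0.149 FPKM. Ptger3 passed the filter through its untreated libraries. The cysteinyl leukotriene receptor gene Cysltr2 rose with LPS in both genotypes (log2 1.45 and 1.20, adjusted p = 5.2e-11 and 8.7e-10). By mean FPKM it rose 12.68-fold in WT, from 0.1765 to 2.238, and 13.09-fold in Pim1-/- cells, from 0.1198 to 1.568. Cysltr2 passed the filter through its LPS-treated libraries. Cysltr1 rose in Pim1-/- cells (log2 1.22, adjusted p = 1.5e-09) and had 0.85 in WT, and the test of the difference gave 0.37 (adjusted p = 0.015), under the 2-fold threshold.

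Of the 5 tested genes downstream of Alox5, Ltc4s and Mgst3 were called between genotypes. Ltc4s, leukotriene C4 synthase, had means of 34.7 ± 2.12 FPKM in untreated WT and 14.4 ± 2.47 in untreated Pim1-/- cells and was called lower there (log2 -1.23, adjusted p = 2.6e-09). After LPS it was at 17.8 ± 0.482 and 9.20 ± 0.256 FPKM (log2 -0.88, adjusted p = 9.5e-08). Mgst3, a microsomal glutathione S-transferase, was called higher in Pim1-/- cells in both conditions, at 84.2 ± 6.54 against 216.9 ± 15.1 FPKM untreated and 77.3 ± 2.19 against 218 ± 8.69 after LPS. Lta4h, leukotriene A4 hydrolase, overlapped between untreated genotypes at means of 37.3 and 36.7 FPKM. It fell with LPS in WT to 18.1 (log2 -1.0038, adjusted p = 9.8e-12) and stood at 27.5 in LPS-treated Pim1-/- cells. Dpep2, which cleaves leukotriene D4, rose with LPS in Pim1-/- cells from 45.0 to 94.1 FPKM (log2 1.05) and had 64.6 and 118.3 FPKM in WT (log2 0.86).

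The genes of breakdown held the largest genotype differences of the list. Hpgd, the dehydrogenase that inactivates prostaglandins, had means of 114.6 ± 7.75 FPKM in untreated WT and 23.6 ± 1.91 in untreated Pim1-/- cells, a 4.857-fold decrease (log2 -2.23, SE 0.07, adjusted p = 2.4e-13). After LPS it was at 19.6 ± 0.913 and 4.39 ± 0.431 FPKM, 4.462-fold lower in Pim1-/- cells (log2 -1.94, adjusted p = 1.7e-12). With LPS it fell in both genotypes, with log2 differences of -2.49 in WT and -2.19 in Pim1-/-. Cyp4f18, a cytochrome P450 that hydroxylates leukotriene B4, was at 10.8 ± 0.456 against 1.73 ± 0.26 FPKM untreated and 8.39 ± 0.329 against 1.56 ± 0.0777 after LPS (log2 -2.12 and -1.88).

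Ptgr1, a prostaglandin reductase, was called higher in untreated Pim1-/- cells at 29.6 against 13.6 FPKM (log2 1.07, adjusted p = 5.7e-11), and after LPS had 31.5 against 15.3 FPKM with a log2 difference of 1.00 that missed the threshold. Ptgr2, a related reductase, fell with LPS in WT from 17.9 to 5.31 FPKM (log2 -1.58, adjusted p = 1.4e-14) and had means of 14.8 and 8.28 in Pim1-/- cells. The exporter gene Abcc1 rose with LPS in WT from 16.1 to 42.9 and in Pim1-/- cells from 14.0 to 35.6 FPKM (log2 1.36 and 1.29).

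**Figure D5:**
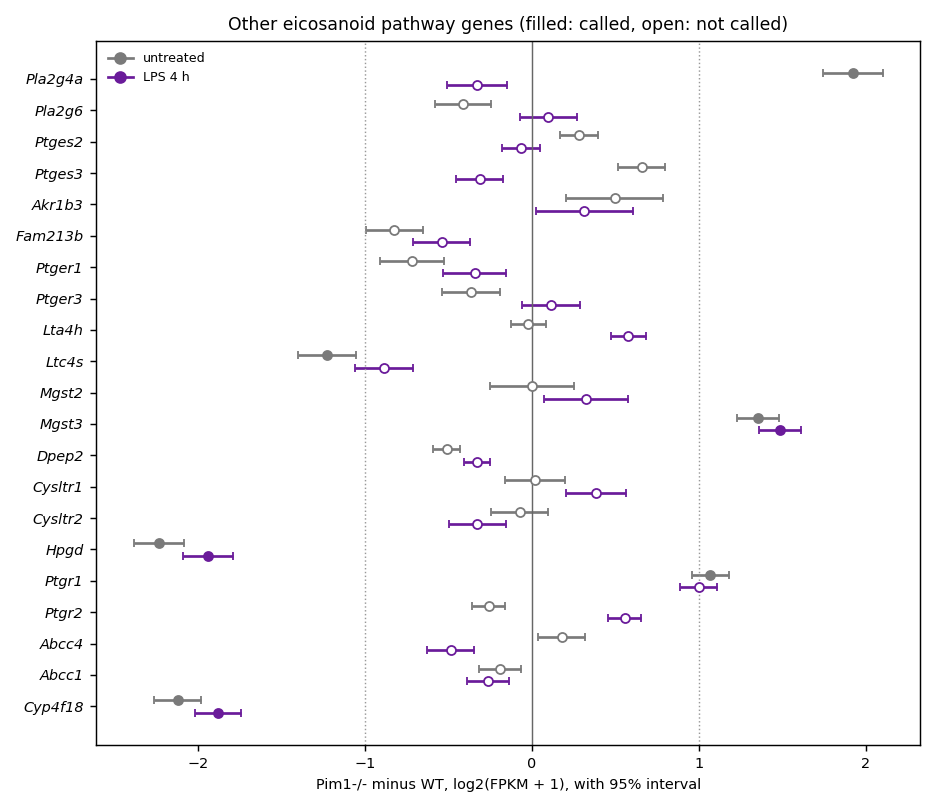
Difference between Pim1-/- and WT cells in log2(FPKM + 1), with 95% intervals, for the 21 tested genes of the wider pathway list. Hpgd and Cyp4f18 are called lower and Mgst3 higher in both conditions, and Pla2g4a is called higher in untreated cells (1.92 untreated, -0.33 after LPS).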

How the data were processed

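RNA was measured in 12 libraries, 3 in each of 4 groups taken from the sample labels. The authors prepared stranded mRNA libraries (TruSeq) and, per the submitters' processing notes, used bcl2fastq 2.20.0.422, cutadapt 1.18, TopHat2 2.0.13 and Cuffdiff 2.2.1 with build mm10, whereas the study's methods name rat rn5 as the genome. Each library's deposited column was read as FPKM, a unit that its header does not state. Depth was estimated from the spacing of values up to 0.3 FPKM, of which 78.38% of 3251 lay within 0.1 of a whole multiple of 1 fragment. With a scale fixed beforehand 20% would by chance. The scale was chosen in each library to fit these same values, so the share is no independent test of the estimate. Such estimates cover counting only.

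Genes reaching 1 FPKM in 3 or more libraries were fitted as 4 group means on log2(FPKM + 1) with limma 3.58.1 in R 4.3.3, with a mean-variance trend and Benjamini-Hochberg adjustment, after a test on simulated data. Thresholds followed the study's methods, applied in both directions. Tables and plots used Python 3.11.15 with numpy 2.4.6, matplotlib 3.10.9 and pandas 2.3.3. Gene positions are from GENCODE on GRCm38. The members and lists were chosen with earlier results of these data known. The rule for names took the 10 members, Pim1, pathway genes called or at 10 FPKM or more in any group, markers at 10 FPKM or more and the 3 nearest profiles to Ptgs2 and Alox5. Markers under 10 FPKM and Ptges2, used in a ratio, were named in addition.

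Same-numbered libraries deviated together over 3646 genes between untreated genotypes (r of 0.326, 0.37 and 0.456) and between treatments in Pim1-/- cells (0.426, 0.541 and 0.683), and so the numbers were taken to pair these. The sources used here do not say what the numbers mark. Alternatives covered the pseudocount, the filter, scaling, the groups fitted, the replicate block, the trend, the threshold and leaving out each library. Equal FPKM sums were added after the data were seen.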

Additional observations from a re-analysis of the deposited data

Results flagged for a closer look

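The response to LPS differed between Pim1-/- and WT cells for 6 of the genes named above past the 2-fold and FDR thresholds of limma's test of the difference in response. They were 2 of the 10 members, 1 of the 21 other pathway genes tested and 3 of the 22 markers tested. Of all genes tested, 6.67% were called in this comparison (4.43% lower and 2.24% higher). Among the pathway genes the difference on log2(FPKM + 1) was -2.41 for Ptges (adjusted p = 1.9e-12), -1.52 for Ptger4 (adjusted p = 3e-09) and -2.25 for Pla2g4a (adjusted p = 5e-10). Ptges and Ptger4 were lower in LPS-treated Pim1-/- than in LPS-treated WT cells. Pla2g4a differed mainly before LPS, at 19.2 FPKM in untreated Pim1-/- and 4.31 FPKM in untreated WT cells. Among the cell type markers the difference was -2.66 for Msr1 (adjusted p = 1.6e-11), -1.24 for Pdgfrb (adjusted p = 1.2e-08) and -1.18 for S100a9 (adjusted p = 3.5e-05). S100a9 passed the filter only through its LPS-treated WT libraries, where it is high.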

How the results depend on the processing

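Files without counts limit what can be said of the lowest levels, chiefly untreated Ptgs2 and Ptges, and the values after LPS depend on library scaling, which moved the median of all genes to -0.172 in WT and -0.179 in Pim1-/- cells under quantile normalization and to 0.12 with equal FPKM sums between LPS-treated genotypes. With a pseudocount of 0.1 FPKM, 1442 genes and 4 of the 10 members were called between LPS-treated genotypes, 1199 genes and 2 members between untreated ones, and 1075 genes for the difference in response. At an FDR under 0.05 with no fold threshold, 8194 genes and 8 members were called after LPS, 7904 and 6 untreated, 9453 and 10 for LPS in WT, 8954 and 10 for LPS in Pim1-/-, and 6657 and 8 for the difference in response. Quantile normalization called 3451 genes and 7 members for LPS in WT and 2657 and 5 in Pim1-/-, and equal FPKM sums 4915 and 7 in WT and 3779 and 6 in Pim1-/-. The cause was not tested. Leaving out 1 library at a time gave 888 to 1005 genes called after LPS, 791 to 861 untreated, 3664 to 3708 for LPS in WT, 2642 to 2669 in Pim1-/- and 692 to 723 for the difference in response.

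Between genotypes, Tbxas1 after LPS turned to 0.0798 under quantile normalization and 0.105 with equal sums, and untreated Alox5ap to -0.0101 with median-ratio scaling and -0.0463 under quantile normalization. Leaving out 1 library, untreated Alox5ap ran from -0.0206 to 0.0429 and untreated Ptgs2 from -0.0123 to 0.029. Alox5 with LPS in WT turned to 0.0691 under quantile normalization, and Ptgir in Pim1-/- to -0.0262 with equal sums. Adding 1 FPKM to both values of a ratio gave, for Ptgs2:Ptgs1, 0.2377 after LPS between genotypes, 10.9113 for LPS in WT and 9.9983 in Pim1-/-. For Ptger4:Ptger2 it gave -0.2286 between untreated genotypes, 2.6102 for LPS in WT and 0.8517 in Pim1-/-. For Alox5ap:Alox5 it gave -0.4842 after LPS and -0.7754 untreated between genotypes, -0.3735 for LPS in WT and -0.0822 in Pim1-/-. For Ptges:Ptges2 it gave -2.5621, -0.4989, 5.1773 and 3.1142 in the same order. The added value itself shrinks ratios that hold a gene under 1 FPKM. Leaving out 1 library, Ptger4:Ptger2 between untreated genotypes ran from -0.066 to 0.0403 and Alox5ap:Alox5 for LPS in WT from -0.0546 to 0.153.

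With the replicate number as a block, 915 genes were called after LPS, 824 untreated, 3686 for LPS in WT, 2649 in Pim1-/- and 707 for the difference in response, and the block changed none of the 50 member calls. Between LPS-treated genotypes the same-numbered deviations correlated at 0.02, 0.366 and 0.191, and between treatments in WT at -0.103, 0.141 and 0.191. The lowest, 0.02 and -0.103, were below the 0.1 set for pairing, so the numbers were not taken to pair these libraries. Differently numbered libraries were not compared, so whether these are paired is not known. The p-values of the main results are from the fit without the block.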
